A study of Mus musculus with 42 samples.

Results

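The comparison described here set DNA methylation in offspring or sperm of males given a high dose of DEHP (di(2-ethylhexyl) phthalate, a plasticizer) against that of males given a low dose. Its members were all 141251 tiles of 100 bp in 6 of the 9 libraries of the deposited methylation table, 3 named for the low dose and 3 for the high dose, out of 42 samples in the series. Both groups were exposed, and the 3 libraries named for control males served to set the level classes and to share in the estimate of spread.

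The fathers were wild-type C57BL/6 males, 8 weeks old at the start of exposure per the design text, which names C57BL/6J. They received vehicle, DEHP at 2.5 mg/kg/day (low) or DEHP at 25 mg/kg/day (high) for 67 days and were then mated with unexposed females. By the labels, reduced representation bisulfite sequencing (RRBS) was done on 30 samples, namely 12 of sperm (4 per group, from C57BL/6 males aged 14 weeks), 9 of embryo and 9 of extra-embryonic tissue (both C57BL/6 * DBA/2J, wild type, embryonic day 7.5, with 3 per group). All are labelled male, and 12 further samples are RNA. The columns are named by dose and number alone. Which of the 3 tissues they came from is not given in the sources used here, and the numbers do not tie a low library to a high one. Nothing in the labels says that libraries came from separate animals or litters, so the p-values measure the spread between these libraries, which may be technical. No coverage is given per tile, so the depth behind each percentage is unknown and no interval for a single value can be given.

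Methylation of cytosine in CpG dinucleotides is copied at each cell division and is largely erased and set again in the early embryo and in germ cells. RRBS reads fragments cut at a CpG-containing site, which enriches gene starts and CpG islands; there most cells keep CpG-dense DNA unmethylated, while gene bodies and sparse CpG are usually methylated. Exceptions at gene starts are imprinted genes, which carry methylation on the copy of 1 parent, genes of the germline, which are silenced by methylation in other tissues, and the inactive X chromosome of females.

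Tile sequences show what a level of methylation stood for. They are given first for 3 gene starts with low, intermediate and high methylation, and then for the 3 tiles in each direction with the smallest p among the 7707 tiles that lay wholly upstream of a start. Both choices were made after the values were seen. Each sequence is from the RefSeq promoter table (GRCm38.p6) and is written 5′ to 3′ on the strand of its gene, with every CpG in capitals.
Sox2, low level: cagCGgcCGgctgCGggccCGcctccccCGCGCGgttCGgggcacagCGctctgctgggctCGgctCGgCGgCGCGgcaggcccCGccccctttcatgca
Zrsr1, intermediate level: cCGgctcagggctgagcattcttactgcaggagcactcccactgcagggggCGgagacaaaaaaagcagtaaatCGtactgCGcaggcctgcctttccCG
Asz1, high level: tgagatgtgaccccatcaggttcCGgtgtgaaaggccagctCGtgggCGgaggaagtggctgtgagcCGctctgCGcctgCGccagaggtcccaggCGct
AW551984, high above low: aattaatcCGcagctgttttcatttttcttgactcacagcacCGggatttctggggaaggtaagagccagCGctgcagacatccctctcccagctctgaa
Rbm6, high above low: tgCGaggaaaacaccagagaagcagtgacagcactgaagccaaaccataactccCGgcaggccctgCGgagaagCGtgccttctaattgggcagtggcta
Fam110a, high above low: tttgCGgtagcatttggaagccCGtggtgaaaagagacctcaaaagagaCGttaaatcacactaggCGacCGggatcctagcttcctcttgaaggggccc
Surf6, high below low: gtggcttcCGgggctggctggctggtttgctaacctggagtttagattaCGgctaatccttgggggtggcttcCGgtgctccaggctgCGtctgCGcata
Tceal3, high below low: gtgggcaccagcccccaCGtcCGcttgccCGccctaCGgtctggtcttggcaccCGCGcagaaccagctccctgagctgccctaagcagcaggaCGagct
Gm31816, high below low: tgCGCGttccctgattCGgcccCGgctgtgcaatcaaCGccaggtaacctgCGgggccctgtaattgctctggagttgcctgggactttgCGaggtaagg

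The Sox2 tile (chr3:34649801-34649900), upstream of a pluripotency and neural transcription factor, holds 15 CpG and was methylated at 0.651%, 0.416% and 0.172% in the low libraries and 0.805%, 0.390% and 0.320% in the high. The Zrsr1 tile (chr11:22971901-22972000), upstream of an imprinted gene methylated on the maternal copy, holds 5 CpG and stood at 47.8%, 51.1% and 51.1% in the low libraries and 46.6%, 51.3% and 53.8% in the high. The tile of Asz1 (chr6:18109101-18109200), a germline gene that protects against transposons, holds 7 CpG and stood at 67.8%, 50.6% and 74.3% against 81.5%, 77.3% and 72.2%. In all 3 tiles the values of both groups overlapped.

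Of the 6 tiles chosen for small p, the AW551984 tile (chr9:39604201-39604300, 3 CpG) had values of 12.7%, 17.9% and 17.8% in the low libraries and 32.5%, 26.8% and 31.9% in the high (difference 14.2 points). Upstream of Rbm6, an RNA-binding splicing regulator, the tile chr9:107872901-107873000 (4 CpG) read 8.57%, 11.1% and 10.8% against 15.4%, 14.4% and 14.2%. The Fam110a tile (chr2:151973501-151973600, 5 CpG) read 13.3%, 12.1% and 15.3% against 20%, 29.9% and 29.4%. In each of these 3 every high library stood above every low library. The Surf6 tile (chr2:26902901-26903000, 5 CpG), upstream of a nucleolar protein gene of ribosome assembly, read 40.5%, 38.1% and 40.6% in the low libraries and 33.8%, 34.2% and 33.7% in the high. The X-linked Tceal3 tile (chrX:136666401-136666500, 7 CpG) read 38.3%, 42.0% and 39.9% against 33.2%, 30.7% and 35.3%, and the Gm31816 tile (chr9:47368301-47368400, 7 CpG) read 15.8%, 17.6% and 18.3% against 12.2%, 13% and 8.01%. Here every high library stood below every low library. None of the 6 passed the test over all tiles, with adjusted p from 0.754 to 0.892 (limma, Benjamini-Hochberg).

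Over the whole table the libraries of the high and low dose had the same mean level within their spread. Mean methylation over the tiles was 35.9%, 35.7% and 36.3% in the low libraries and 35.9%, 36.1% and 35.9% in the high, a difference of -0.006 points (exact two-sided permutation p = 0.9). With 3 libraries against 3 such a test cannot go below 0.1. The control libraries stood at 35.2%, 35.7% and 36.1%. A high library was as far from a low library as libraries of 1 group were from each other. The mean absolute difference per tile was 4.2 points between the groups, 4.44 points among the low libraries and 3.96 points among the high, and between minus within was 0.0025 points (one-sided exact permutation p = 0.5; chosen after seeing the data).

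By level, most tiles were either sparsely or intermediately methylated. In the control libraries 38741 tiles averaged under 5%, 31189 tiles from 5% to 20%, 50319 tiles from 20% to 80%, 20564 tiles from 80% to 95% and 438 tiles at 95% or over. The high minus low differences of the library means in these 5 classes were 0.05, 0.14, -0.06, -0.18 and -0.17 points, with exact permutation p from 0.4 to 0.9 and adjusted p = 0.9 in each (Benjamini-Hochberg over the 5 classes). No class separated the groups. Differences between single tiles were wider where methylation was intermediate: a difference of 10 points or more was found in 17 tiles of the lowest class, 210 of the second, 3032 of the 20% to 80% class, 279 of the 80% to 95% class and 2 of the highest. The spread between libraries of 1 group was also widest there, with a median SD of 5.36 points against 0.61 in the lowest class.

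**Figure D1:**
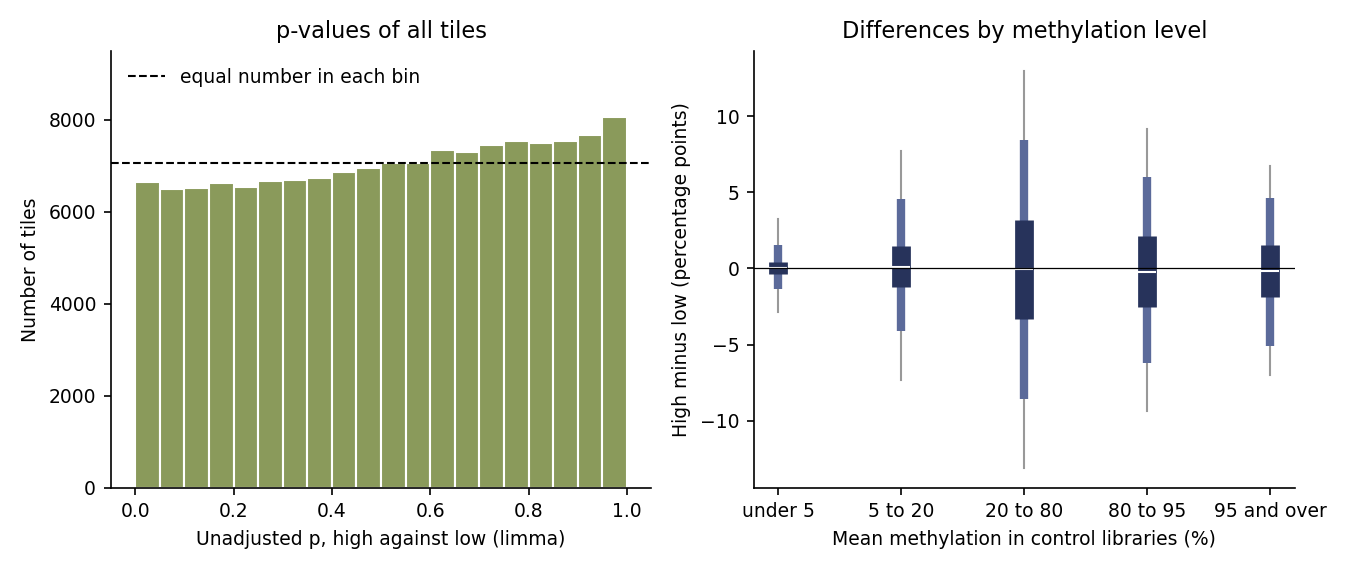
Left, the number of tiles in each bin of the unadjusted limma p for high against low, with the number per bin that an even spread would give. Right, high minus low in percentage points by mean level in the control libraries (%). The lowest p bin holds 6652 tiles and the highest 8063, and differences are widest from 20% to 80%.

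Levels differed far more between places in the genome than between doses. Tiles within 500 bp of a gene start (43819 tiles) averaged 8.39%, 8.58% and 8.80% in the low libraries and 8.60%, 8.63% and 8.78% in the high. Those between 500 bp and 2 kb from a start (15861) averaged 22.1%, 22.1% and 22.7% against 22.4%, 22.5% and 22.6%. Gene bodies (41366) averaged 63.4%, 62.8% and 63.8% against 63.2%, 63.5% and 63.1%. Tiles between genes (19786) averaged 59.5%, 58.7% and 59.7% against 59.2%, 59.4% and 58.8%. The groups overlapped in all 4 places, and adjusted p was 0.8 to 0.9 (exact permutation, Benjamini-Hochberg over the 4). A further 20419 tiles could not be placed with the start table used and averaged 27.3% in both groups. They include all 4192 tiles of chromosome 18, for which the start table held no gene. The values by place, the gene starts, the CpG counts and the sequences shown therefore leave out that chromosome.

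**Figure D2:**
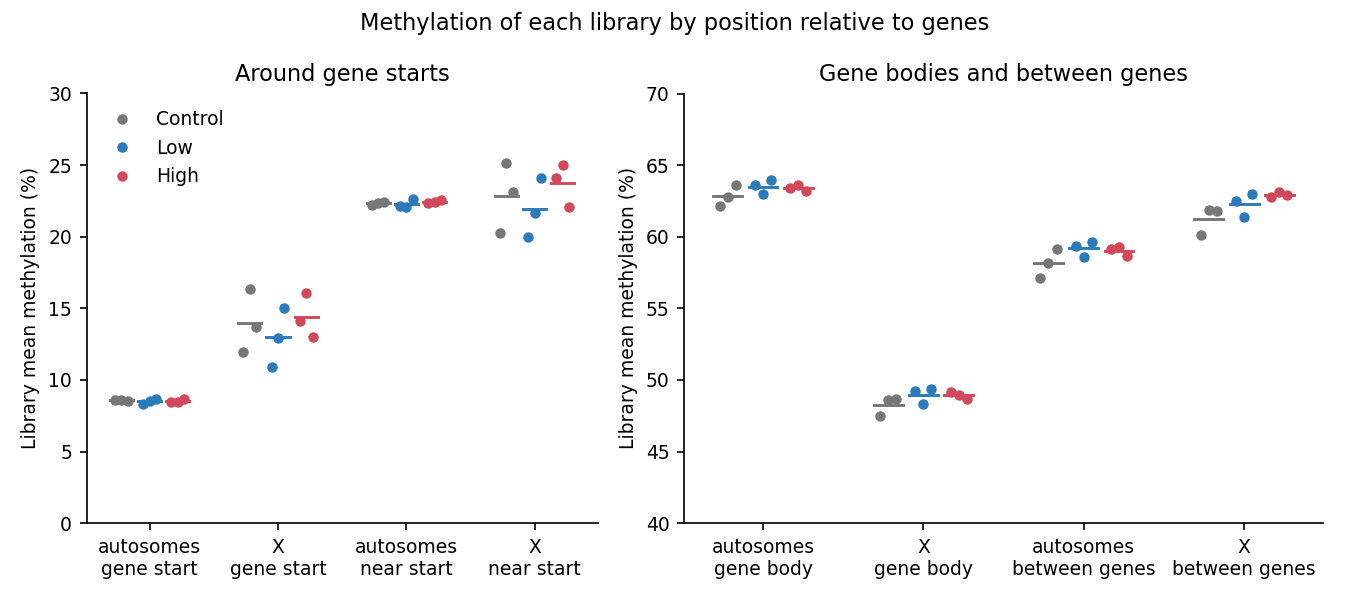
Mean methylation (%) of each of the 9 libraries, by distance from genes (4 places) and treatment; each point is 1 library. Gene starts lie near 9% and gene bodies near 63% in the control, low and high libraries alike, with overlapping points.

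CpG density was read for the 10634 tiles lying wholly within 250 bases before to 50 bases after a start. Tiles with 1 to 2 CpG (129 tiles) had a median level of 25.4% in the low libraries and 24.6% in the high. The medians were 6.29% and 6.62% with 3 to 5 CpG, 3.48% and 3.61% with 6 to 8, 3.11% and 3.40% with 9 to 12, and 2.73% and 2.97% with 13 to 27. Levels were lower with each step in CpG number in both groups, and the share of tiles with an unadjusted p under 0.05 was 6.20%, 4.37%, 2.37%, 2.24% and 1.88% in the same order. The median SD within groups also fell, from 3.54 to 0.79 points. The share of tiles whose groups did not overlap was 11.6%, 8.97%, 8.49%, 9.31% and 9.12%, with no such steady fall.

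No autosome separated the doses. Over chromosomes 1 to 19 the difference of the library means lay between -0.15 points (chromosome 18) and 0.06 points, and over all 21 chromosomes no 3 high libraries stood wholly above or below the 3 low ones (adjusted p = 1, exact permutation, Benjamini-Hochberg over the 21). The Y chromosome (71 tiles) lay between 70.6% and 75.5% in all 9 libraries.

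The X chromosome varied more than the autosomes within every group. Its 2132 tiles averaged 32.3%, 33.0% and 34.9% in the low libraries and 34.4%, 35.3% and 33.5% in the high, with 32.0%, 35% and 33.7% in the controls. The mean difference was 0.976 points (exact permutation p = 0.4, adjusted p = 1), and the groups overlapped. High stood above low in 1327 of the X tiles (62.2%), tiles that share the same 6 libraries, and the difference ranged from 0.441 points without Low1 to 1.70 points without Low3.

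X tiles near gene starts (740) averaged 10.9%, 12.9% and 15.1% in the low libraries, 14.1%, 16.0% and 13% in the high and 12%, 16.3% and 13.7% in the controls. The difference there was 1.4 points, against 0.384 points without Low1, 0.573 points without High2 and 2.44 points without Low3. The SD between libraries was 2.06 points (low) and 1.56 points (high) on the X and 0.17 and 0.12 points at autosomal starts, where the difference was 0.053 points. X levels at starts thus moved by library in all 3 groups, although every sample is labelled male, and what sets them was not tested. Aff2, an X-linked elongation factor gene, read 3.17%, 4.5% and 3.53% in the low libraries and 9.09%, 9.02% and 6.31% in the high over 2 tiles at its start (chrX:69360301-69360500), with adjusted p = 0.814 (limma, Benjamini-Hochberg).

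**Figure D3:**
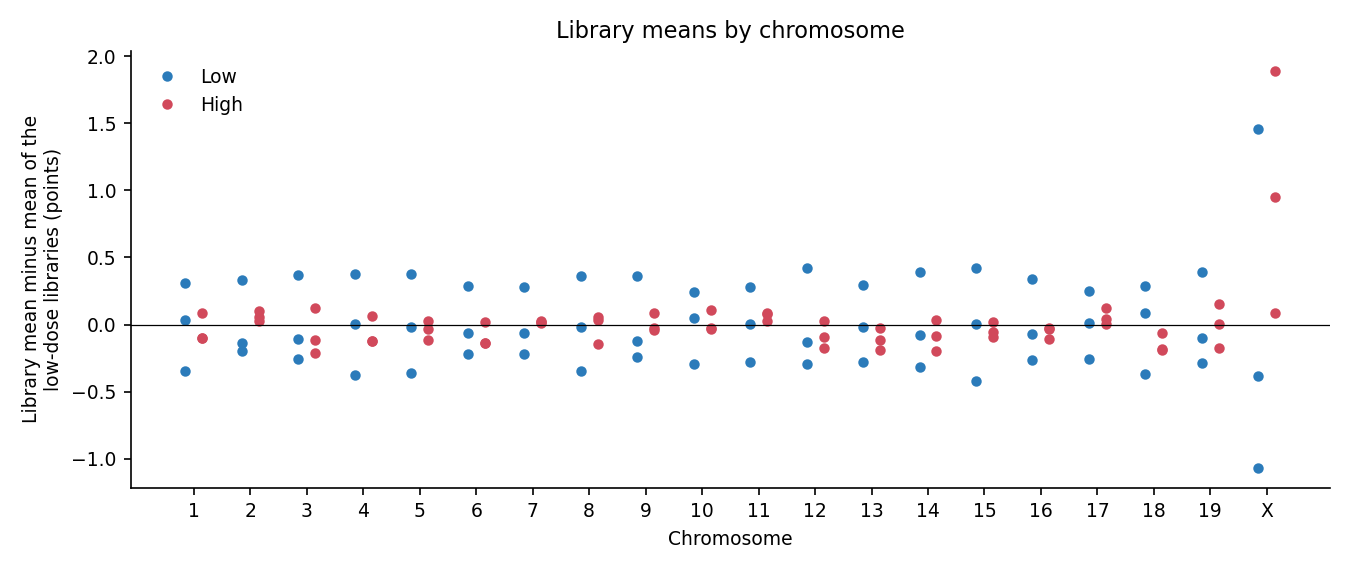
Library mean per chromosome minus the mean of the low-dose libraries (percentage points), for each low and high library. The points of the autosomes lie close to 0 with overlapping groups, and the X shows the wide spread described in the text.

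Tested tile by tile, no tile passed. Of 141251 tiles, 0 (0.0%) had an adjusted p under 0.05 (limma, Benjamini-Hochberg over all tiles), and the lowest adjusted p was 0.132. At an unadjusted p under 0.05 there were 6652 tiles (4.71%), with high above low in 3369 (2.39%) and below in 3283 (2.32%). A fit on the logit scale called 1 tile and a fit with a mean-variance trend called 2, named below. The high and low libraries did not overlap in 13505 tiles (9.56%), of which 1869 (1.32%) also differed by 10 points or more. The median absolute difference was 1.45 points, 90% of tiles differed by less than 6.18 points and 99% by less than 12.5, and the largest difference was 28.2 points.

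Among the tiles with the smallest p were weakly methylated tiles near a gene start that were at or near 0 in 1 of the doses. A tile 620 bp from the start of Rnf216, an E3 ubiquitin ligase gene (chr5:143112301-143112400), read 0.794%, 0% and 0.840% in the low libraries, 8.97%, 9.52% and 8.67% in the high and 0%, 0.746% and 0% in the controls. The difference was 8.51 points (SE 0.605, adjusted p = 0.132, limma with Benjamini-Hochberg). Low and control libraries were alike there and the high libraries stood apart. The other, 168 bp from the start of Naa16, which codes for a subunit of a protein N-terminal acetyltransferase (chr14:79390401-79390500), read 0%, 0% and 0.725% in the low libraries, 9.84%, 9.94% and 9.55% in the high and 10.8%, 9.09% and 10.7% in the controls (difference 9.53 points, SE 0.680, adjusted p = 0.132). There the low libraries stood apart and the high libraries were like the controls. Tiles within 600 bp of either differed less. The 5 tiles around Rnf216 differed by -0.227 to 5.11 points and the 4 around Naa16 by -0.699 to 0.325 points, none with an unadjusted p under 0.05. With the mean-variance trend the Rnf216 tile had an adjusted p = 0.00286 (range over all fits 0.00286 to 0.704) and the Naa16 tile 0.0233 (range 0.0233 to 0.936; 0.0400 on the logit scale).

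Others were intermediately methylated tiles of gene bodies and of the space between genes, which differed more and with little spread. In Nell1, a secreted growth regulator of bone (chr7:50115401-50115500), the low libraries read 53.1%, 50.6% and 47.1%, the high 68.4%, 74.7% and 70.5% and the controls 62.5%, 60.0% and 60.0%. Its difference of 21 points had an SE of 2.06 and an adjusted p = 0.494 (limma, Benjamini-Hochberg), and controls lay between the doses. In Spred2, an inhibitor of Ras-MAPK signalling (chr11:19965101-19965200), the low libraries read 51.9%, 55.9% and 58.8%, the high 76.2%, 73.5% and 78.3% and the controls 71.2%, 75% and 73.7%. Both its neighbouring tiles had differences of the other sign, -10.1 and -4.09 points. Sez6l2, a membrane protein gene of neurons (chr7:126963501-126963600), read 36.5%, 42.3% and 40.4% against 55.4%, 54.0% and 53.6%. In all 3 genes each high library stood above each low one.

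With high below low there were also tiles of gene bodies and of the space between genes. In Atp11a, a phospholipid flippase (chr8:12803301-12803400), the low libraries read 92.9%, 93.4% and 96.1%, the high 77.3%, 77.4% and 76.2% and the controls 90.2%, 83.7% and 84.4%. In Cdh22, a cadherin (chr2:165120301-165120400), the low libraries read 56.0%, 56.1% and 56.8% and the high 48.9%, 47.7% and 49.2%. Low and high libraries did not overlap in these tiles. Outside genes, the tile chr19:59628401-59628500 read 53.8%, 53.6% and 50.4% in the low libraries and 35.2%, 31.5% and 28.7% in the high. The tiles named for the smallest p had adjusted p between 0.132 and 0.608, and 10 of the 24 tiles named by the rule had no other tile within 600 bp.

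Some of the widest differences among tiles whose groups did not overlap came with wide spread. In Maml3, a coactivator of Notch signalling (chr3:51888801-51888900), the low libraries read 33.3%, 42.4% and 27.5% and the high 54.5%, 73.8% and 54.7%, a difference of 26.6 points with an SE of 9.22 and an adjusted p = 1 (limma, Benjamini-Hochberg). At the start of Sec14l1, a lipid-binding protein gene (chr11:117115301-117115400), the low libraries read 42.9%, 44.6% and 14.7%, the high 8.72%, 8.51% and 8.88% and the controls 37.8%, 16.4% and 15.4%. Only 2 of the 3 low libraries and 1 control stood high at Sec14l1. Efl1, a GTPase of ribosome maturation (chr7:82771401-82771500), read 35.9%, 30% and 33.3% against 64.6%, 51.6% and 57.1%, and Ttc27 (chr17:74860301-74860400) read 53.2%, 50% and 56.9% against 75.6%, 73.5% and 83.9%. Libraries of 1 group lay closer together at Efl1 and Ttc27 than at Maml3, and the adjusted p of both was 0.754.

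**Figure D4:**
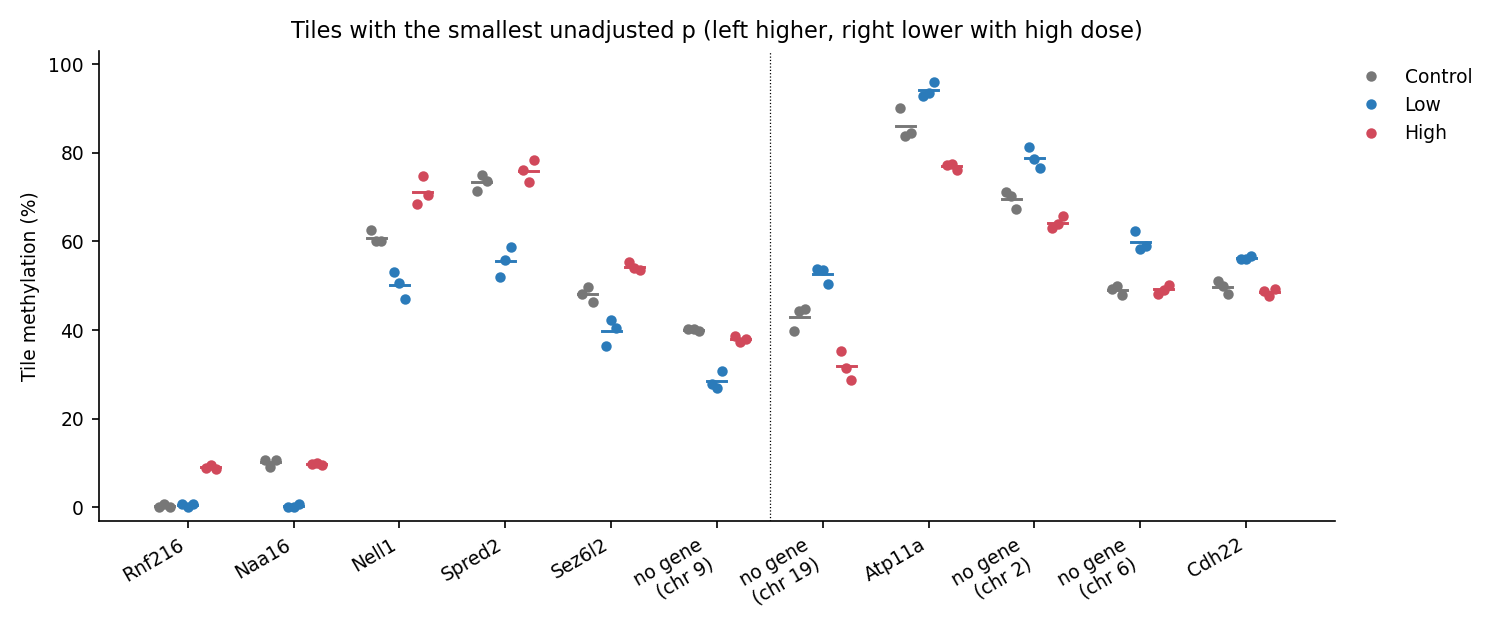
Methylation (%) of tiles with the smallest p, with high above low left of the dotted line and high below low right of it, in the control, low and high libraries; each point is 1 library. Low and high points do not overlap in any of them, and none passed the adjusted threshold.

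Differences were shared by tiles that touch and hardly beyond. Across 63917 pairs of touching tiles the differences correlated at Pearson r = 0.138, across 15056 pairs up to 500 bp apart at 0.0391, across 8112 pairs over 500 and up to 2000 bp apart at 0.00987 and across 29335 pairs further apart at 0.00492. These are descriptions across tiles of the same 6 libraries, and a fragment that spans both tiles enters both. Of the 182 touching pairs in which both tiles had an unadjusted p under 0.05, 134 had the same sign.

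Averaged over each gene start, no gene passed the test. Of 10504 starts with 2 or more tiles within 500 bp, 0 (0.0%) had an adjusted p under 0.05 (limma, Benjamini-Hochberg), with a lowest value of 0.286. At an unadjusted p under 0.05 there were 480 (4.57%), 269 with high above low (2.56% of all starts, 56.0% of the 480) and 211 below (2.01%), and the fit without Control1 called 1, described with the runs of tiles. That division depended on the libraries: high was above low in 42.2% of such starts without Low1 and in 65.5% without Low3. After centring the libraries it was so in 66.9%, but centring raises every high minus low difference by the same amount. The groups did not overlap at 1050 starts (10%).

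Among the 8 starts with the smallest p and high above low, Dgki, a diacylglycerol kinase gene (chr6:37299601-37300500, 8 tiles), read 10.1%, 10.4% and 10.5% in the low libraries and 13%, 12.4% and 12.7% in the high (2.39 points, SE 0.317, adjusted p = 0.286). Of its 8 tiles 6 had high above low, and their differences ran from -1.80 to 10.6 points. Gria4, a subunit of the AMPA glutamate receptor (chr9:4795901-4796100, 2 tiles), read 6.23%, 2.95% and 3.08% against 13.8%, 11.4% and 16.6% (9.85 points, adjusted p = 0.386). Ccdc39, which acts in assembling the motor arms of cilia (chr3:33843801-33844100, 3 tiles), read 16.8%, 17.9% and 18.9% against 24.2%, 23.1% and 25.3%. Phlda2, an imprinted gene that limits placental growth (chr7:143502001-143502600, 4 tiles), read 4.94%, 4.53% and 4.11% against 6.88%, 7.17% and 7.69% (2.72 points, adjusted p = 0.537), with 7.59%, 8.36% and 9.12% in the controls. In these 4 genes all high libraries stood above all low libraries, and at Phlda2 the mean of either dose lay below that of the controls, with high and control libraries overlapping. Lad1, an anchoring filament protein, Matn3, a cartilage matrix protein, and Iqcb1, a ciliary protein, differed by 2.13, 1.65 and 3.20 points.

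Among the 8 with high below low, Klhl23, a Kelch family gene (chr2:69822101-69823400, 7 tiles), read 12.8%, 12.7% and 13.2% in the low libraries and 8.25%, 8.79% and 9.15% in the high (-4.15 points, SE 0.493, adjusted p = 0.286, limma with Benjamini-Hochberg). Its widest tile read 69.7%, 54.2% and 52.3% against 38.8%, 44.9% and 43.3%, and its 7 tiles ran from -16.4 to 0.628 points. Nfatc2ip, which codes for a partner of the NFAT transcription factors, read 4.90%, 4.81% and 5.14% against 3.15%, 3.06% and 2.83%, also with 1 tile of 4 under an unadjusted p of 0.05. Mfsd12, a lysosomal transporter gene (chr10:81357401-81357700, 3 tiles), read 7.0%, 7.46% and 5.0% against 1.89%, 0.962% and 1.12%, and its widest tile read 16.9%, 18.8% and 11.3% against 1.74%, 0% and 0%. At each of these 3 starts 1 tile had an unadjusted p under 0.05. Prim1, the DNA primase subunit that starts DNA synthesis, differed by -6.40 points, with all 3 of its tiles in that direction. T (Brachyury), the mesoderm transcription factor of the primitive streak (chr17:8433901-8434800, 5 tiles), read 15.8%, 13.5% and 14.5% in the low libraries and 10.8%, 11.7% and 10.1% in the high (-3.74 points, adjusted p = 0.814). Lrp8, a reelin receptor, Dcaf15, a substrate receptor of a ubiquitin ligase, and Arl15, a small GTPase, differed by -2.56, -2.53 and -2.61 points. At each of the 16 starts named, 1 or 2 tiles had an unadjusted p under 0.05.

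Whole genes gave the same picture. Of 17117 genes with 3 or more tiles in their span and 2 kb on either side, 0 (0.0%) had an adjusted p under 0.05 (limma, Benjamini-Hochberg), 816 (4.77%) had an unadjusted p under 0.05, 461 with high above low (2.69%) and 355 below (2.07%), and 1712 (10%) had groups that did not overlap. With high above low and the smallest p were Ttc27, Ccdc39, Slc44a3, a choline transporter-like gene, Jph2, a junctional protein of heart muscle, Catsperz, part of the sperm calcium channel, and Zfp775, a zinc finger gene. Slc44a3 (6 tiles) read 48.4%, 48.9% and 49.5% in the low libraries and 52.9%, 57.0% and 54.2% in the high, and Catsperz (13 tiles) read 14.4%, 14.8% and 15.1% against 17.7%, 17.2% and 18.7%. With high below low were Ccdc173, Chp2, a calcium-binding protein gene, Adora2b, an adenosine receptor, Trpm5, a cation channel of taste cells, Kcnip4, a potassium channel partner, and Limk1, a kinase of actin turnover. Ccdc173 (4 tiles) read 21.3%, 20.6% and 21% against 16.4%, 17.1% and 17.3% (-4.05 points, adjusted p = 0.285, the lowest of all genes), and Trpm5 (3 tiles) read 24.3%, 21.9% and 25.0% against 16.9%, 18% and 12.5%. Low and high libraries did not overlap in any of these 12 genes, and their adjusted p ran from 0.285 to 0.627.

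Runs of 3 or more tiles with gaps of at most 500 bp numbered 14716. Of these, 0 (0.0%) had an adjusted p under 0.05 (limma, Benjamini-Hochberg; lowest 0.539), 657 (4.46%) had an unadjusted p under 0.05, 366 with high above low (2.49%) and 291 below (1.98%), and 1452 (9.87%) had groups that did not overlap. The run in Nod1, a sensor of bacterial cell wall fragments (chr6:54943601-54944600), had all 8 of its tiles in the same direction, by 2.05 to 11 points, and read 47.8%, 47.1% and 46.1% in the low libraries and 54.2%, 53.4% and 55.7% in the high. At Tbx15, a T-box transcription factor of skeletal development (chr3:99240901-99241600), all 7 tiles had high below low, by -8.66 to -1.47 points, and the run read 17%, 19% and 17% against 12.1%, 13.3% and 13.6%. In Nin, a centrosomal protein gene, the run chr12:70107201-70107900 read 85.4%, 88.3% and 83.0% against 74.7%, 72.8% and 77.1%, with all 3 tiles in that direction. The start of Gm9997, a predicted gene at the same place (chr12:70107201-70107400), was the one called without Control1. It read 89.7%, 90.6% and 87.4% in the low libraries, 76.1%, 77.2% and 77.2% in the high and 73.4%, 81.1% and 80.6% in the controls (-12.4 points, adjusted p = 0.386 with all libraries and 0.0269 to 0.983 over all fits, limma with Benjamini-Hochberg). In Nod1, Tbx15 and Nin every tile of the run had the same direction, which was so for 4 of the 7 tiles at Klhl23. Tenm2, a teneurin cell adhesion gene, and Susd4, a complement regulator, had runs that differed by 5.66 and 3.71 points, and at Susd4 5 of 8 tiles had that direction.

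Gene lists are described by their counts and medians only. Over all 17117 genes, 8958 had high above low and 4.77% had an unadjusted p under 0.05, which are the shares given beside each list. That share depended on level. Among tiles it was 1.38% under 5%, 4.52% from 5% to 20%, 6.78% from 20% to 80% and 6.15% from 80% to 95%. The lists were not matched for level. Germline starts, for example, had a median of 48.4% in the low libraries, beside 5.29% for all starts. Centring subtracts from every feature of a library the same shift, set from tiles of 20% to 80%. All high minus low differences therefore rise by the same amount. The median of all genes moved from 0.044 to 0.182 points, and those of the lists moved equally. Medians given after centring carry this offset and are no separate check.

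Levels at imprinted genes ranged widely in both groups, and several starts were intermediate. At the start of Snrpn (3 tiles shared with Snurf) the low libraries read 32.7%, 36.4% and 41.8%, the high 56.1%, 48.5% and 38.3% and the controls 32.6%, 26.7% and 41.8%. Plagl1, a growth-restraining zinc finger gene, read 41.8%, 42.1% and 41.0% against 43.7%, 48.2% and 37.5%, and Meg3, a noncoding RNA methylated on the paternal copy, read 32.8%, 38.5% and 43.7% against 25.9%, 30.4% and 33.9%. The groups overlapped at all 3. Of the 29 genes measured that carry maternal methylation, 19 had high above low and 10 below, with a median of 0.459 points beside 0.044 over all genes, and 0 passed the test. At an unadjusted p under 0.05, 4 were higher and 1 lower (Mcts2, -7.94 points), 17.2% beside 4.77% of all genes. The 4 were Airn and Igf2r, which share tiles, Mest and Inpp5f. Airn, the noncoding RNA that silences Igf2r, read 32.2%, 34.4% and 36.0% in the low libraries and 35.5%, 41.5% and 41.2% in the high (5.22 points, adjusted p = 0.985). At the 17 starts measured of genes with maternal methylation, 13 were above and 4 below (median 1.54 points, beside 0.054 over all starts). Of these starts 1 had an unadjusted p under 0.05 (5.88%, beside 4.57% of all starts). The 6 genes with paternal methylation divided 3 and 3 (median -0.041 points, 0.096 after centring), and their 3 starts measured were below (median -1.29 points).

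Starts of germline genes ranged from near 0 to high methylation in both groups. Dazl, an RNA-binding regulator of germ cells, read 57.7%, 52.3% and 54.6% in the low libraries and 56.6%, 57.6% and 53.5% in the high, and Sycp3, a protein of the meiotic chromosome axis, read 49.2%, 43.7% and 40.4% against 46.9%, 48.2% and 59.4%. Prdm9, which directs meiotic recombination, was near 0 at its start in both (0.244%, 0.117% and 0.122% against 1.07%, 0.590% and 0.915%). Of the 15 germline starts measured 8 had high above low and 7 below, with a median of 0.699 points beside 0.054 over all starts. At an unadjusted p under 0.05 were Dmrtb1 (7.14 points), Asz1 (6.58 points) and Prdm9 (0.699 points) above and Stag3 (-1.29 points, named after its value was seen) below, 26.7% beside 4.57% of all starts, and 0 passed the test (adjusted p = 0.998 for each, limma with Benjamini-Hochberg). Over whole genes the list (21 genes) had 12 above and 9 below, a median of 0.638 points, with Dmrtb1 (6.77 points) and Majin (-4.25 points) at such a p (9.52%, beside 4.77% of all genes). The levels at imprinted and germline starts are given as values and were not used to name a tissue.

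Lists of early embryonic lineages had no member past the test. Of 19 pluripotency and epiblast genes 16 had high above low (median 0.484 points), beside 8958 of 17117 over all genes, and 14 to 17 did over the fits of the same genes. Pou5f1, the pluripotency factor Oct4, read 31.9%, 27.8% and 29.9% in the low libraries and 34.3%, 34.6% and 34.5% in the high over 5 tiles (4.62 points, adjusted p = 0.961), with no overlap, and Zfp42 differed by 2.80 points. Of 23 trophoblast genes 15 had high above low (median 0.389 points, -0.03 without Low1). Gata2, a transcription factor of trophoblast and blood, read 24.3%, 25.8% and 26.2% against 27.9%, 29.6% and 28.2% over 35 tiles (3.10 points, adjusted p = 0.896), and Tfap2c differed by 1.51 points. Of 16 visceral endoderm genes 5 were above and 11 below (median -0.359 points, 0.02 without Low3 or without High3), none with an unadjusted p under 0.05. Of 15 muscle and heart genes 10 were above (median 0.850 points), but at starts 2 of 5 were (median -0.028 points). Of 18 blood and endothelium genes 11 were above (median 0.447 points), among them Klf1, the erythroid factor, by 2.15 points. At starts of that list 3 of 8 were above (median -0.139 points).

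Developmental regulators that Polycomb proteins usually mark had small differences between the doses. Of 99 such genes 66 had high above low (median 0.343 points), and the 5 with an unadjusted p under 0.05 (5.05%, beside 4.77% of all genes), all higher, were Gata2, Nkx2-3, Prdm8, Dlx5 and Irx3. Nkx2-3, a homeobox gene of gut and spleen, read 12.1%, 13.2% and 13.9% in the low libraries and 16.3%, 16.4% and 14.9% in the high (2.78 points, adjusted p = 0.961). Of 39 Hox genes 27 had high above low, and 19 without Low2 (median 0.490 and -0.004 points), with Hoxb1 (5.03 points), Hoxc4 (3.27 points) and Hoxb13 (2.92 points) at an unadjusted p under 0.05 (7.69%, beside 4.77% of all genes). At the 52 starts of the Polycomb-type list the median was -0.031 points (0.11 after centring), with 25 above and 27 below. The median level of these starts was 8.14% in the low and 7.53% in the high libraries. Both lay above the 5.29% and 5.34% of all starts. Over whole genes the list stood at 16.32% and 16.62%, below the 20.94% and 21.03% of all genes. The clustered protocadherins, neuronal adhesion genes that share tiles, had 34 of 39 above (median 0.471 points) and none with an unadjusted p under 0.05. Their mean was 25.18%, 23.22% and 24.75% in the low libraries and 24.67%, 24.79% and 24.90% in the high. Only Low2 lay below every high library, and Low1 lay above them all.

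Signalling and metabolic lists had medians on either side of 0. Of 70 genes of the Wnt, FGF, BMP, Nodal, Hedgehog and Notch type 41 were above (median 0.237 points, -0.04 without Low1). At an unadjusted p under 0.05 were 5 (7.14%, beside 4.77% of all genes). Of these Wnt2b (1.83 points) was above. The growth factors Fgf2 (-2.98 points) and Fgf18 (-2.30 points), the receptor Fgfr3 (-1.14 points) and Wnt4 (-1.49 points) were below. Of 17 retinoic acid genes 5 were above (median -0.262 points), but at starts 6 of 11 were (median 0.053 points). Among 23 genes of the PPAR and fatty acid list, which holds the receptors that phthalate metabolites bind, 12 were above (median 0.132 points), and Slc27a1, a fatty acid transporter, differed by 2.93 points. Ppara read 13.5%, 15% and 13.4% in the low libraries and 15.6%, 14.3% and 15.9% in the high. Of 29 steroid synthesis and nuclear receptor genes 16 were above (median 0.136 points, -0.02 without Low1), with Nr5a1, the steroidogenic factor, at 35.7%, 33.8% and 32.9% against 40.2%, 36.5% and 35.6%. Of 36 neuronal genes 16 were above (median -0.122 points, 0.02 after centring), and Gria1 read 57.4%, 53.1% and 56.1% against 47.4%, 50.7% and 47.9% (-6.87 points, adjusted p = 0.961). At starts 9 of 13 neuronal genes were above (median 0.211 points). None of these lists had a member past the test.

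Genes of DNA methylation writers, erasers and readers differed little in their own methylation. Of 23 measured 11 were above and 12 below (median -0.082 points, 0.06 after centring), with 0 at an unadjusted p under 0.05. The start of Dnmt1, the maintenance methyltransferase, read 14.3%, 12.7% and 11.9% in the low libraries and 11.7%, 13.8% and 13.1% in the high, and that of Dnmt3a, a de novo methyltransferase, read 4.36%, 4.28% and 5.55% against 4.58%, 5.78% and 5.92%. Of the 3 X inactivation genes measured, Ftx and Jpx were below and Rlim above, none with an unadjusted p under 0.05.

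**Figure D5:**
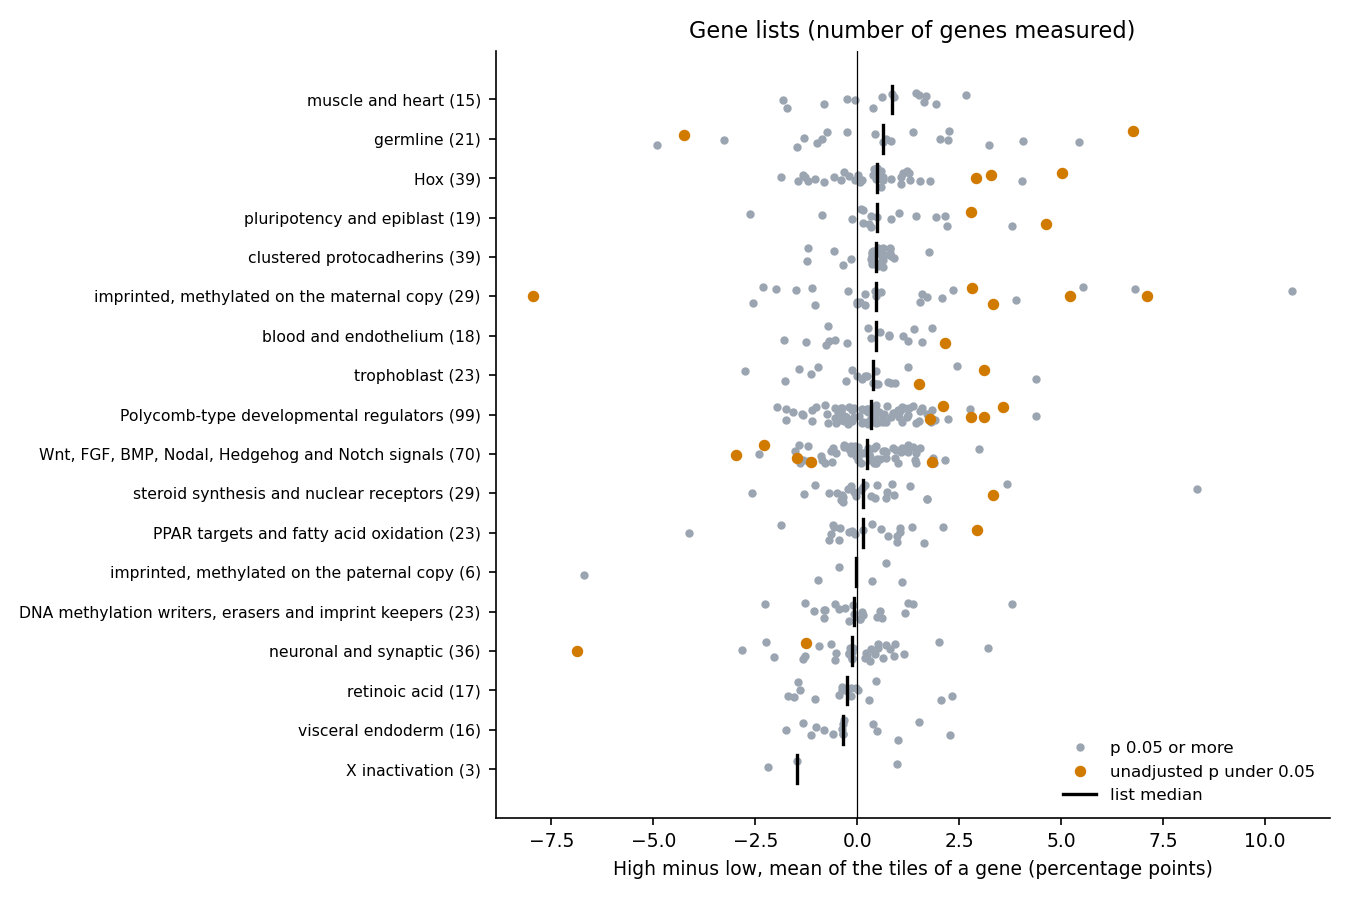
High minus low in percentage points for the measured genes of each list (number in brackets), with the list median; each point is 1 gene and the line marks 0. Medians run from -0.359 (visceral endoderm) to 0.850 (muscle and heart) among lists of 5 or more genes, beside 0.044 over all genes. At gene starts, which are not shown, the medians of some lists had the other sign, muscle and heart among them.

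A deposited expression table with 2 libraries per dose, also without a tissue name, gives levels for some of these genes in CPM (counts scaled to a fixed total per library); whether it comes from the same animals is not given. Starts of genes with a mean of 100 CPM or over had a median methylation of 4.19% in the low and 4.23% in the high methylation libraries. With 1 to 10 CPM the medians were 5.66% and 5.81%, and for genes not listed 7.78% and 7.83%. Naa16 had 29.8 and 27.9 CPM with the low dose and 27.0 and 30.01 CPM with the high, and Rnf216 had 47.9 and 49.8 against 48.4 and 51.2 CPM. Klhl23 had 28.0 and 26.7 against 23.7 and 25.1 CPM, and Phlda2 had 73.1 and 128 against 107 and 117 CPM. T had 212 and 287 against 255 and 204 CPM. Low and high libraries overlapped in CPM for each of these but Klhl23, whose low values were the higher ones. The control libraries, at 24.1 and 29.97 CPM for Klhl23, overlapped both doses. Klhl23 was not alone among named genes, and others lacked overlap in either direction. Both high values stood above both low ones at, for example, Lrp8, Sec14l1, Hoxb1 and Airn, and below them at Wnt2b and Pou5f1. With 2 libraries per dose no test was made, and the share of all genes without overlap in CPM was not counted.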

How the data were processed

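The authors deposited a table of percent methylation per tile for 9 libraries, which lacks read coverage and has no missing value, and a table of CPM for gene expression. Per the submitters' processing notes, which give no roles, the tools include Bismark, Bowtie2, methylKit, Trim Galore and Bowtie 0.12.2, and the builds are mm8 and mm10. GRCm38 was used for the tiles, since 10634 of 10634 tiles in RefSeq promoter windows hold a CpG (80.5% to 85.1% in shifted windows). Percentages were compared with limma 3.58.1 in R 4.3.3, without a trend, on all 9 libraries (6 residual degrees of freedom), contrast high minus low, with Benjamini-Hochberg adjustment and a threshold of 0.05. Single values per library were compared by exact permutation in Python 3.11.15. Gene starts are means of 2 or more tiles within 500 bp, and genes means of 3 or more within the span and 2 kb on either side.

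Named are the 6 tiles per direction with the smallest p and the 6 with the largest difference without overlap. Also named are 8 gene starts, 6 genes and 6 runs per direction, and up to 3 members of each list. Predicted genes were passed over for gene starts and genes, and not for runs. The text gives the values of 12 of these 24 tiles, and not all of the others are reported here. Members and the 18 gene lists were chosen with earlier results of these data known. The fits were tested on simulated data. The alternatives were other scales, filters, centring, gap and tile minimums, the column number as a block and leaving out each library. The library distances, the X chromosome by place and library, CpG numbers and the tiles shown by sequence were added after seeing the data.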

Additional observations from a re-analysis of the deposited data

How the results depend on the processing

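No tile, gene start, gene or run passed an adjusted p under 0.05 in most fits. The exceptions were 1 tile (Naa16) on the logit scale, 2 tiles (Naa16 and Rnf216) with a mean-variance trend, and 1 gene start (Gm9997) without Control1. Leaving out each library gave 0 tiles, 0 to 1 gene starts, 0 genes and 0 runs called, and at an unadjusted p under 0.05 it gave 6359 to 7926 tiles, 383 to 612 gene starts, 735 to 992 genes and 569 to 816 runs. Counts at that p were 1733 tiles that also differed by 10 points, 251 gene starts after centring, 275 gene starts (of 5626) with a mean from 5% to 95%, and 317 runs (of 7533) of 5 or more tiles. Centring took the same shift, set from tiles of 20% to 80%, off every gene start of a library, whatever its level. How this lowered the count was not tested. The 1733 tiles met a stricter criterion, and the other 2 counts come from fewer features. Without 1 library the library mean difference ran from -0.154 to 0.169 points. Level classes whose groups did not overlap numbered 0 to 1, chromosomes 0 to 5 (5 without Low3, 2 without Low2) and places relative to genes 0 to 2. With the median over tiles 1 chromosome did not overlap, against 0 with the mean. The column numbers did not pair low with high libraries (correlations of deviations -0.00355, -0.0236 and -0.00174), and with the number as a block 0 features were called, with 7193 tiles, 514 gene starts, 872 genes and 696 runs at an unadjusted p under 0.05. On the high and low libraries alone 7490 tiles had such a p. No tile or run named by the rule changed sign in any fit, nor did a gene start or gene so named with an unadjusted p under 0.05. They were chosen in these same libraries, and where groups do not overlap, leaving out a library cannot change the sign. The unchanged signs are therefore no separate evidence. Without coverage, tiles read few times could not be set apart from tiles read often.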
